A study of Mus musculus with 6 samples.

Results

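The D and E cyclins, the kinases they activate and the inhibitors of those kinases set the pace at which a cell leaves G1 and begins to copy its DNA. The 10 genes described here are the D cyclins Ccnd1, Ccnd2 and Ccnd3, the E cyclins Ccne1 and Ccne2, the kinases Cdk2, Cdk4 and Cdk6, and the CDK inhibitors Cdkn1b (p27) and Cdkn2c (p18). They were chosen by name, as 10 of 23574 features in the deposited tables, and 7 of them passed the filter on low counts and were among the 10204 genes tested. The samples were haematopoietic stem cells of C57BL/6 mice, sorted as Lin- Sca+ c-Kit+ cells without CD34 or Flt3 on their surface. One group came from animals labelled HLF KO, which lack hepatic leukaemia factor (Hlf, a PAR bZIP transcription factor), and the other from wild-type littermates. Each genotype had 3 libraries of 3000 freshly isolated cells, with no treatment named. The labels do not give the age of the animals, the part of Hlf removed, the cells in which it was removed, or whether the 3 libraries of a genotype are 3 animals. The p-values therefore speak only of the spread among these libraries, part of which may be technical. The question was how loss of Hlf bears on the quiescence of these cells.

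D cyclins pair with Cdk4 or Cdk6 when growth signals arrive, and these complexes begin to phosphorylate the retinoblastoma protein. Its release of E2F factors switches on Ccne1 and Ccne2, whose products pair with Cdk2 and drive entry into S phase. Inhibitors of the INK4 family, such as p18, bind Cdk4 and Cdk6 and block their pairing with D cyclins, while p27 of the CIP/KIP family binds complete cyclin-CDK complexes. Most adult stem cells of the blood rest outside the cycle, and Cdk6, p27 and p18 are known to bear on how they leave or keep that state.

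Of the 10 genes, 3 could not be measured in these tables, namely Ccnd3, Ccne2 and Cdk2. The authors' counts are listed per RefSeq transcript, and genes with several listed transcripts had far fewer counts than genes with 1. Where 1 transcript was listed, the median gene had 79 counts summed over all 6 libraries, and 48.8% of such genes reached 100 counts. Genes with 2 transcripts had a median of 3, and 20.5% reached 100, while those with 3 or more had a median of 2 and 17.5% reached 100. Ccnd3, with 3 listed transcripts, had 2 counts in all, 1 in knockout library 2 and 1 in knockout library 3. Ccne2, also with 3, had 9 counts, 4 in wild-type library 2 and 5 in wild-type library 3. Cdk2, with 2, had 75 counts, namely 2, 27 and 3 in wild-type libraries 1, 2 and 3 and 7, 33 and 3 in knockout libraries 1, 2 and 3. These low counts are not read as low expression, and no fold change is given for the 3 genes.

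The counts that these genes did receive sat on the listed transcript with the most sequence of its own. In the matching GENCODE M21 models, the Ccnd3 transcript NM_007632 has 145 bases (7.33% of its length) that neither other listed transcript contains. It held both Ccnd3 counts, and the other Ccnd3 transcripts, with 0 such bases, held none. For Ccne2 all 9 counts lay on NM_001037134, which has 191 bases of its own, and 0 lay on NM_009830, which has 101. All 75 Cdk2 counts lay on NM_183417, which has 171 bases of its own (7.11%), against 5 for NM_016756. Most of those 171 bases form 1 stretch of 144 inside the reading frame, bases 589 to 732 counted from the start codon, which the shorter transcript lacks. It is printed from the GENCODE transcript because it marks the isoform on which the Cdk2 counts were listed:
Cdk2 NM_183417 stretch: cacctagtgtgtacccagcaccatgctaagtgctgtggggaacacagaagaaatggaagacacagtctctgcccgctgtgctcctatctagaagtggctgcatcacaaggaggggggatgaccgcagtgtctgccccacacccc
It adds 48 codons, so that the longest reading frame is 1041 bases in place of 897. The other 7 genes have 1 listed transcript each, so their reads could not be split between transcripts.

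The promoters of the measured kinases and of Cdkn2c are shown because these genes had the highest level per length (Cdk4), the widest spread among wild-type libraries (Cdk6) and the largest difference between genotypes (Cdkn2c). Windows run from 250 bases before to 50 after a start site in the RefSeq table of GRCm38.p6, which held 9 windows for 7 of the 10 genes. Ccnd1, Ccnd2 and Ccne2 were not matched. Capitals mark CACGTG, the E-box bound by factors of the Myc and Max network and by clock factors:
Cdk4, chr10:127063285-127063584, plus strand: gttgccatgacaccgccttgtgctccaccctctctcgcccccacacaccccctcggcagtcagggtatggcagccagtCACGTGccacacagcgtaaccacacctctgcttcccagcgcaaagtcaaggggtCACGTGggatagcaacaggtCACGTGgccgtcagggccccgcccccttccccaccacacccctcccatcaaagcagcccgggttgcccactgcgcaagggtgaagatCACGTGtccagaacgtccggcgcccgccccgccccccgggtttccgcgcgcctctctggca
Cdk6, chr5:3343643-3343942, plus strand: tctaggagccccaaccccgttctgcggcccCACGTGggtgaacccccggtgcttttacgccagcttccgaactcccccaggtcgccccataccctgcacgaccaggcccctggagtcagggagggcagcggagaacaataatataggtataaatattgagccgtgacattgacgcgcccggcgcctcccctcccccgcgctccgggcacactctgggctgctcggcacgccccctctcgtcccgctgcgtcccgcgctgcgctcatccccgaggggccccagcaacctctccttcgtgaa
Cdkn2c, chr4:109665323-109665622, minus strand: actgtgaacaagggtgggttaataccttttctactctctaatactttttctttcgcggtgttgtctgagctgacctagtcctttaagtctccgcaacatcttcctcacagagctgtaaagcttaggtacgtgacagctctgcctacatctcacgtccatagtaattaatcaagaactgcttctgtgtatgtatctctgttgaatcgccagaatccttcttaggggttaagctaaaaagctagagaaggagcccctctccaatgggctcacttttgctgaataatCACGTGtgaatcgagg
The Cdk4 window holds 4 E-boxes, a number reached by 8 of 32851 windows of the same length (0.0244%), and those of Cdk6 and Cdkn2c hold 1 each. At least 1 is found in 7.15% of all windows, and in 3 of the 9 windows of these genes. Cdkn2c has another window further upstream, at chr4:109666707-109667006, that holds none. The PAR bZIP motif, searched on both strands as TTACGTAA, TTATGTAA or TTACATAA, was found in 0 of the 9 windows and in 1.06% of all windows. An E2F-type motif (TTTCCCGC, TTTGGCGC, TTTCGCGC or TTTGCCGC, both strands) was found in the Cdk2 window alone, against 2.26% of all. The GC box GGGCGG was found on either strand in 7 of the 9 windows and in 35.7% of all. These are matches of letters, and binding was not measured.

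The libraries held 8346335 to 9902102 counts in wild type and 10182464 to 11998296 in knockout, so every knockout library was deeper. Hlf fell from 1370, 1662.2 and 1114.2 CPM (counts scaled to library size and TMM factor) in wild type to 28.3, 37.6 and 37.3 CPM in knockout. The fitted log2 fold change of Hlf was -5.33 (SE 0.26, edgeR adjusted p = 1.91e-06). It was the 1 gene called among 10204 (0.0098%). Of 14 stem cell markers 12 were tested, while Ly6a (6 listed transcripts) had 0 counts and Kit (2) had 1, so the sort could not be checked on them. Among the 12 the median log2 fold change was -0.41, with 5 positive and 7 negative values. Hlf, the gene removed, is 1 of the 12 and is counted among the lower markers named next, so its part was given by the design. The other values ran from -1.69 (Procr) to 0.39 (Tal1). At an unadjusted edgeR p under 0.05 there were 4 with lower values in knockout (Hlf, Procr, Mecom and Fgd5) and 0 with higher ones, where 4.65% of all tested genes were lower at that level. Mecom has 2 listed transcripts, so its counts may be incomplete. With genes of 1 listed transcript alone, 8 markers were tested, 4 positive and 4 negative, with a median of -0.3. Of these 3 were lower at that level. Hlf, Procr, Mecom and Tek were lower in every knockout library than in every wild-type library, as were 6.85% of tested genes. Procr had 40.1, 93.3 and 91.5 CPM in wild type and 31.9, 11.1 and 26.7 CPM in knockout, and Mecom had 168.1, 195.5 and 221.4 and then 153.3, 95.4 and 80.9 CPM, and apart from Hlf none of the 12 passed edgeR's adjusted test. Summed without Hlf, the markers came to 1239.7 to 1508.5 CPM in wild type and 1129.9 to 1374.3 CPM in knockout, which overlap. Wild-type library 1 stood apart on the first principal component and had the fewest features with a count (10796). Wild-type library 2 stood apart on the second. Summed markers of other cells overlapped between the genotypes for granulocytes and did not for the other 4 cell types. Granulocyte markers (9 genes, S100a9 at 0 in all libraries) summed to 118.8 to 2389.4 CPM in wild type, highest in library 3, and to 62.7 to 164.7 CPM in knockout. In knockout most of that sum was Mpo, which overlapped between the genotypes. All 5 tested granulocyte markers had negative log2 fold changes, with a median of -5.02, but 3 of the 5 were positive with wild-type library 3 left out. Prtn3 was lower in every knockout library, as were 6.85% of tested genes. The 10 B-lineage markers summed to 760 to 5609 and to 139.8 to 300.1 CPM, most of it Jchain. The 7 megakaryocyte markers summed to 480.9 to 626.2 CPM in wild type and 848.5 to 1194.4 CPM in knockout. Of these 4 (Pf4, Gp9, Gp1ba and Plek) were higher in every knockout library, as were 7.52% of tested genes. Ppbp went the other way, at a log2 fold change of -1.95. The 8 erythroid markers, with Hbb-b1 and Hba-a1 at 0 everywhere, summed to 431 to 509.8 and 579.2 to 717.4 CPM. That separation rested on Aqp1, at 37.4, 141.7 and 136.4 CPM in wild type and 216.4, 235.2 and 209.2 CPM in knockout. Without Aqp1 the erythroid sums overlap. Gata1 and Aqp1 were higher in every knockout library, as were 7.52% of tested genes, while Tfrc had a log2 fold change of -0.20. The 8 T-lineage markers, with Cd8a and Lck at 0, summed to 130.4 to 238.3 and 332.1 to 629.2 CPM. In knockout most of the T-lineage sum was the cytotoxic genes Nkg7 and Ccl5. Without these the T-lineage sums were 124, 70.1 and 17.5 CPM in wild type and 24.9, 43.5 and 35.9 CPM in knockout, which overlap. Of the remaining markers, Cd4 was lower in every knockout library, as were 6.85% of tested genes. Cd3g, at no more than 6.22 CPM, was higher in every one, as were 7.52% of tested genes. The part of these cells in the values below was not tested, and in bulk RNA a change in the make-up of the cells and a change of RNA per cell cannot be told apart.

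None of the 7 tested members passed edgeR's quasi-likelihood test between knockout and wild type (0 with adjusted p under 0.05 over 10204 genes, where 0.0098% of genes passed). At an unadjusted p under 0.05 there was 1 member, Cdkn2c, with higher values in knockout, against 2.63% of all tested genes in that direction. DESeq2 called 0 of the 7, against 1.26% of its tested genes, and limma-voom called 0 of the 7, against 0.0098%. All 7 log2 fold changes were positive, where 47.2% of tested genes were positive. Their median was 0.35, beside -0.051 for all tested genes. The members were chosen with earlier results of these data known, so this count and median are a description and no test. Cdkn2d, a tested INK4 gene outside the 7, stood at -0.40. Ccnd2 lay at 0.02, and its sign turned with DESeq2's size factors (-0.0048), so that 6 of 7 were then positive. Cdkn2c was the 1 member whose knockout libraries all lay above all wild-type libraries, a pattern shown by 7.52% of tested genes.

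**Figure D1:**
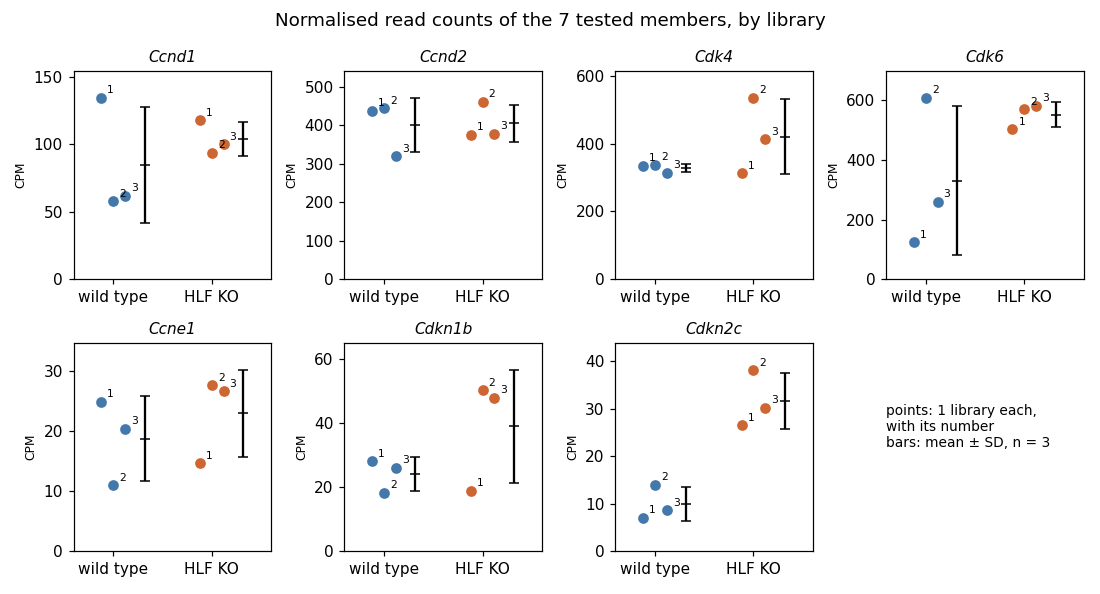
CPM (vertical axes, from 0) of the 7 tested members in each library, with the library number beside each point and the mean and SD of 3 libraries per genotype at the right. The Cdkn2c points do not overlap between genotypes, and Cdk6 runs from 124.3 to 608.3 CPM among wild-type libraries alone.

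Cdkn2c, whose product p18 binds and restrains Cdk6 and Cdk4, had the largest difference of the 7. Its CPM was 7.12, 14 and 8.64 in wild-type libraries 1, 2 and 3 and 26.5, 38.1 and 30.2 in knockout libraries 1, 2 and 3, from 56 to 135 and from 290 to 405 raw counts. The lowest knockout library was therefore well above the highest wild-type one. The mean was 9.94 ± 3.63 CPM in wild type (SD, n = 3) and 31.6 ± 5.94 CPM in knockout (SD, n = 3). Cdkn2c thus had a log2 difference of 1.67 (SE 0.66), or 3.18-fold, with a 95% interval running from 1.18 to 8.59 (edgeR unadjusted p = 0.0263, adjusted p = 0.637). By the unadjusted p it ranked 412 of 10204 genes, and DESeq2 gave an adjusted p of 0.247. An exact two-sided permutation test gave 0.1, below which p cannot go with 3 against 3. The log2 fold change lay between 1.49 and 2.01 with any 1 library left out, and the unadjusted edgeR p was then 0.0153 to 0.0991. The summed megakaryocyte markers, the summed erythroid markers (through Aqp1) and the cytotoxic genes Nkg7 and Ccl5 were likewise higher in every knockout library. So were 7.52% of tested genes, and the T-lineage sum without Nkg7 and Ccl5 overlapped between genotypes. The summed B-lineage markers, the granulocyte marker Prtn3 and the stem cell markers Hlf, Procr, Mecom and Tek were lower in every knockout library. That held for 6.85% of tested genes, and Hlf is the gene removed. Of the 12 tested stem cell markers 5 had positive values, and the stem cell sum without Hlf overlapped between genotypes. The part of all these markers in the Cdkn2c difference was not tested. No exon of another gene overlaps Cdkn2c in the GENCODE annotation.

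Cdkn1b, which encodes p27, was uneven within the knockout. Its CPM was 28, 18.2 and 26 in wild type and 18.8, 50.1 and 47.8 in knockout. Knockout library 1 lay within the wild-type range, and knockout libraries 2 and 3 lay above it. Cdkn1b differed by 0.69 on the log2 scale (SE 0.57), or 1.61-fold, with a 95% interval running from 0.679 to 3.84 (edgeR adjusted p = 0.808, two-sided exact permutation p = 0.3). Without knockout library 1 it was 1.03.

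Among the kinases, Cdk6 varied most. Its CPM was 124.3, 608.3 and 260 in wild type and 503.2, 570.2 and 581.7 in knockout. Wild-type library 2 was the highest of all 6, wild-type library 1 was the lowest, and the 3 knockout libraries lay close together between wild-type libraries 3 and 2. The highest wild-type library was 4.89 times the lowest, a spread reached by 1.73% of the 2193 tested genes with a mean of at least 100 CPM, whose median was 1.65. In knockout the ratio was 1.16, with a median of 1.38 for the same genes. The mean was 330.9 ± 249.7 CPM in wild type (SD, n = 3) and 551.7 ± 42.4 CPM in knockout (SD, n = 3). This gave a log2 fold change of 0.74 (SE 0.43), or 1.67-fold, with a 95% interval running from 0.868 to 3.2 (edgeR adjusted p = 0.724, two-sided exact permutation p = 0.4). It rested on the wild-type libraries, being 0.36 without library 1 and 1.53 without library 2 (edgeR adjusted p = 0.785 and 0.391).

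Cdk4, the paralogue of Cdk6 that pairs with the same cyclins, had the reverse pattern of spread. Its CPM was 334.4, 336.9 and 314.5 in wild type and 312.8, 534.8 and 413 in knockout. The highest wild-type library was 1.07 times the lowest, and 98.8% of the genes with at least 100 CPM had at least as wide a spread there, while the knockout ratio was 1.71. Knockout library 1 was the lowest of all 6 and the other knockout libraries were the highest. Cdk4 had a log2 difference of 0.35 (SE 0.24), or 1.28-fold, with a 95% interval running from 0.895 to 1.83 (edgeR adjusted p = 0.747, two-sided exact permutation p = 0.4). It was 0.16 without knockout library 2.

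The balance of Cdk6 to Cdk4 inside each library does not depend on how libraries are scaled. Raw Cdk6 counts were 0.372, 1.81 and 0.827 times those of Cdk4 in wild-type libraries 1, 2 and 3, and 1.61, 1.07 and 1.41 times in knockout. All 3 knockout libraries fell between wild-type libraries 3 and 2. The mean log2 ratio was -0.28 ± 1.14 in wild type and 0.42 ± 0.30 in knockout (SD, n = 3 each), a difference of 0.71 (two-sided exact permutation p = 0.4), which shrank to 0.14 without wild-type library 1 and grew to 1.27 without wild-type library 2. The log2 ratio of Cdk6 to its inhibitor Cdkn2c was 4.09, 5.42 and 4.88 in wild type and 4.24, 3.89 and 4.26 in knockout. Wild-type library 1 lay among the knockout libraries and the others above them. The difference was -0.66 (two-sided exact permutation p = 0.3, and 0.4 for both ratios when adjusted over these 2), -1.02 without wild-type library 1 and -0.35 without wild-type library 2. Ratios of Ccnd2 to Ccnd3 and of Cdk2 to Cdkn1b could not be formed.

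Of the D cyclins, Ccnd2 was the steadiest between genotypes. Its CPM was 438.7, 444.6 and 319.6 in wild type and 375.8, 461.4 and 378.6 in knockout, with the knockout libraries inside or near the wild-type range. Ccnd2 had a log2 fold change of 0.02 (SE 0.22) and a fold of 1.01, with a 95% interval running from 0.725 to 1.41 (edgeR adjusted p = 0.992). This was the narrowest interval of the 7. Ccnd1 stood at 134.4, 57.8 and 61.8 CPM in wild type and 117.8, 93.7 and 99.9 CPM in knockout. Wild-type library 1 was the highest of all and the other wild-type libraries the lowest. Its difference was 0.29 on the log2 scale (SE 0.39, edgeR adjusted p = 0.907), or 1.23-fold, with a 95% interval running from 0.677 to 2.22, and without wild-type library 1 it was 0.81 (edgeR adjusted p = 0.518). There was 0.306, 0.13 and 0.193 of a Ccnd1 count per Ccnd2 count in wild type and 0.314, 0.203 and 0.264 in knockout, and these ranges overlap.

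Ccne1, the E cyclin that could be measured, was among the least precise, with the same standard error as Cdkn2c. Its CPM was 24.9, 11 and 20.4 in wild type and 14.7, 27.7 and 26.7 in knockout, so that knockout library 1 lay within the wild-type range and the other knockout libraries just above it. Knockout library 1 was the lowest of the 3 knockout libraries for 6 of the 7 tested members, all but Ccnd1. Ccne1 had a log2 fold change of 0.29 (SE 0.66), or 1.23-fold, with a 95% interval running from 0.451 to 3.34 (edgeR adjusted p = 0.95), and 0.03 without wild-type library 2. The interval spans both a lower and a more than 3-fold higher level.

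**Figure D2:**
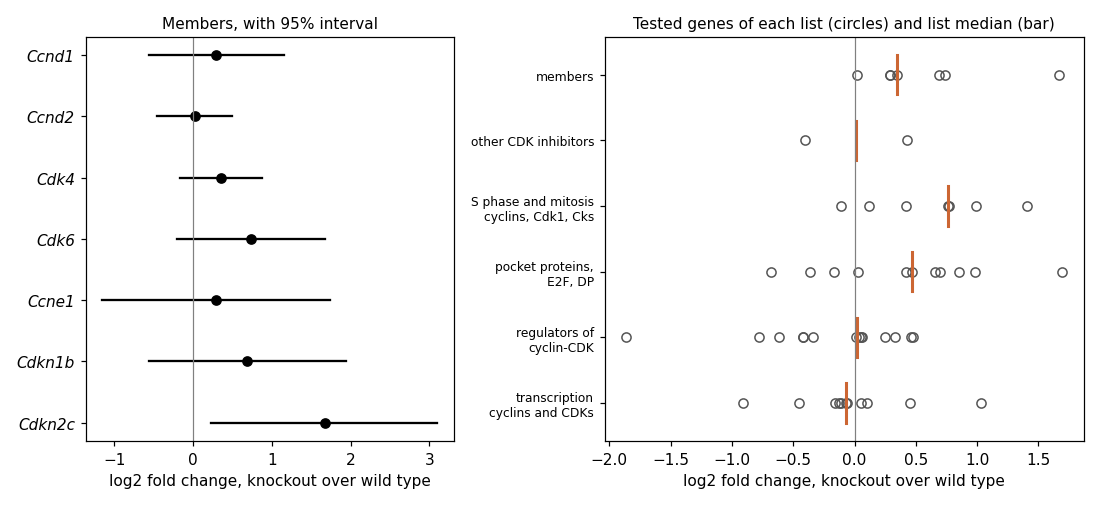
Left, log2 fold change of knockout over wild type (horizontal axis) of the 7 tested members with 95% intervals from edgeR. Right, the same quantity for each tested gene (circles) of the members and 5 related lists, with the list median as a bar; the Cdkn2c interval, from 0.23 to 3.10, is the 1 interval of the 7 that does not cross 0.

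**Figure D3:**
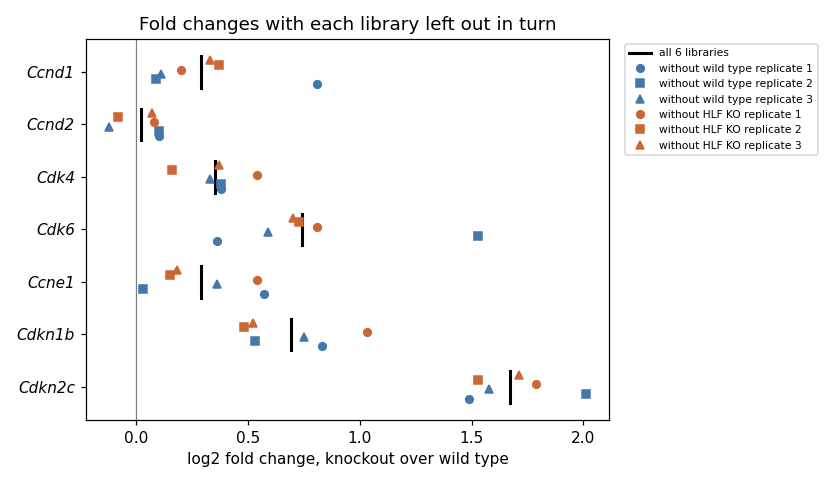
Log2 fold change of each member (horizontal axis) with all 6 libraries (bar) and with each library left out in turn (symbols). Cdkn2c keeps to 1.49 to 2.01, whereas Cdk6 ranges from 0.36 to 1.53 and Ccnd2 crosses 0.

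Levels of different genes were compared per length, as CPM per kb of the GENCODE model that matches the listed transcript. Cdk4 was the highest in every library, at 160 ± 5.98 CPM per kb in wild type and 204.7 ± 54.2 in knockout (SD, n = 3 each). Ccnd2 came next in every library, at 63.3 ± 11.1 and 64 ± 7.68 CPM per kb, and its highest library (72.9) lay below the lowest of Cdk4 (152.4). Cdk6 followed at 28.7 ± 21.7 CPM per kb in wild type and 47.9 ± 3.68 in knockout. Although Cdk6 gave more counts in all than Cdk4 (27446 against 22572), its model is 11525 bases long and that of Cdk4 2053.

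Lower in the order the genes lay closer together. In wild type, Ccnd1 (22.6 ± 11.5 CPM per kb), Cdkn1b (10.1 ± 2.17), Ccne1 (9.39 ± 3.55) and Cdkn2c (8.98 ± 3.29) followed, and Cdkn1b, Ccne1 and Cdkn2c did not differ beyond their spread (SD, n = 3 each). Cdk6 and Ccnd1 overlapped as well, and in wild-type library 1 Cdk6 was 6th of the 7, behind Ccnd1, Ccne1 and Cdkn1b too. It was 3rd in the other 5 libraries. In knockout the order below Cdk6 was Cdkn2c at 28.6 ± 5.37, Ccnd1 at 27.8 ± 3.35, Cdkn1b at 16.2 ± 7.30 and Ccne1 at 11.5 ± 3.60 CPM per kb (SD, n = 3 each). Cdkn2c and Ccnd1 did not differ beyond their spread there. Cdkn2c thus stood last by mean level in wild type and 4th in knockout, the largest change of place among the 7. By library its place was 7, 5 and 7 in wild type and 5, 4 and 4 in knockout, so wild-type library 2 and knockout library 1 gave the same place.

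**Figure D4:**
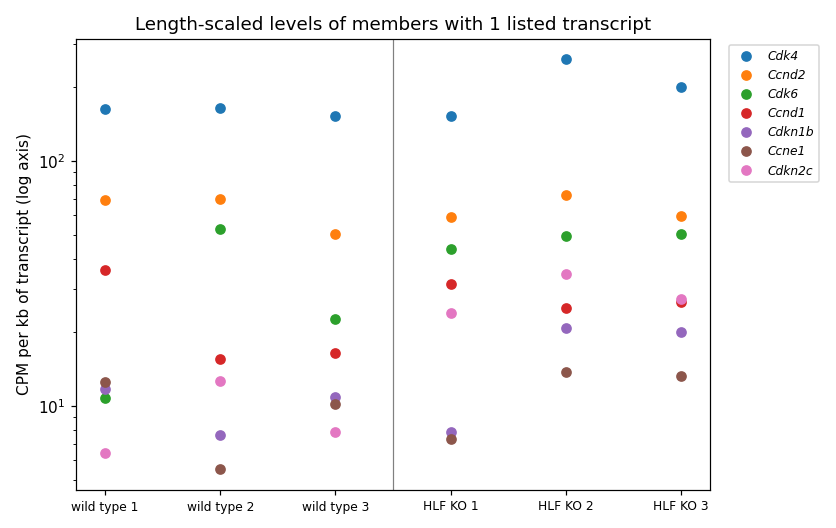
CPM per kb of transcript (vertical log axis) of the 7 members with 1 listed transcript in each of the 6 libraries (horizontal axis). Cdk4 is the top point and Ccnd2 the next in all 6, and Cdkn2c runs from 6.44 to 12.7 CPM per kb in wild type and from 24 to 34.5 in knockout.

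Whether reads were assigned by strand cannot be read from the labels or the files. In the GENCODE annotation, exons of Cdk4 overlap 641 bases of Tspan31 on the opposite strand, those of Ccnd1 overlap 1100 bases of LTO1, and those of Cdk6 and Ccnd2 overlap non-coding transcripts over 368 to 372 bases. The overlaps were taken over all annotated exons of each gene, which reach beyond the listed transcript (4709 against 3740 bases for Ccnd1). Where the listed transcript shares such bases, reads from the partner there cannot be told apart from those of these 4 genes. Ccne1 and Cdkn1b, like Cdkn2c, have no such overlap.

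The other CDK inhibitors gave little to measure. Of 6 genes 2 were tested, 1 with a positive and 1 with a negative fold change, and 0 passed (edgeR, adjusted or unadjusted p under 0.05). Over all tested genes 0.0098% passed when adjusted, and 2.63% were higher and 4.65% lower when unadjusted. Cdkn2d, which encodes the INK4 protein p19, stood at 31.2, 182.3 and 130.9 CPM in wild type and 71.6, 61.5 and 127.4 CPM in knockout, all 3 knockout libraries lying between wild-type libraries 1 and 3. That is a log2 difference of -0.40 (SE 0.54, edgeR adjusted p = 0.91), opposite in sign to that of its INK4 relative Cdkn2c, and neither passed the test. Cdkn3, a phosphatase that acts on CDKs, stood at 0.43 (SE 1.24). Cdkn2b, with 1 listed transcript, had 17 counts in knockout library 2 and 0 in the other 5, while Cdkn1a, with 2 listed transcripts, had 1 count and cannot be read.

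Among the cyclins, kinase and adaptors of S phase and mitosis, 7 of 8 genes were tested, 6 with positive and 1 with negative log2 fold changes and a median of 0.76 (0.47 without knockout library 2). Of these 2 had an unadjusted p under 0.05 by edgeR, both higher in knockout (2.63% of all tested genes), and 0 passed when adjusted over all genes. The number with an unadjusted p under 0.05 was 1, not 2, when wild-type library 1 was left out, and likewise on leaving out the second or the third knockout library. Cks2, a small adaptor of CDK complexes, stood at 112.6, 96.5 and 109.6 CPM in wild type and 147.9, 252.5 and 143.2 CPM in knockout, with no overlap (log2 fold change 0.77, SE 0.31, edgeR adjusted p = 0.637). Ccnf, a cyclin that serves as part of a ubiquitin ligase, stood at 11.8, 14.9 and 25.3 CPM in wild type and 31, 37 and 69.8 CPM in knockout, again with no overlap (1.41, SE 0.58, edgeR adjusted p = 0.65). Every knockout library lay above every wild-type library for 7.52% of all tested genes. Ccnb2, a mitotic B cyclin, stood at 0.76 (SE 0.40). The higher summed megakaryocyte and erythroid markers in knockout (the latter through Aqp1) stand beside these values as well, and their part was not tested.

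Of the pocket proteins, E2F and DP factors, which the G1 kinases act on or release, 11 of 13 were tested, 8 with positive and 3 with negative values and a median of 0.47. By edgeR 2 had higher values at an unadjusted p under 0.05 (2.63% of all tested genes) and 0 passed when adjusted. That count was 0 without wild-type library 3 and 0 without knockout library 2, and without the latter the median was 0.28. E2f3 stood at 0.98 (SE 0.36), the repressor E2f8 at 0.85 (SE 0.32) and E2f2 at -0.68 (SE 0.47). Every knockout library lay above every wild-type library for 4 of the 11, E2f3, E2f8, Rb1 and Tfdp2, as for 7.52% of all tested genes. Rb1, which encodes the retinoblastoma protein, stood at 0.47 (SE 0.36), and Tfdp2 has 6 listed transcripts and at most 14 counts in a library. Rb1 and Tfdp2 are named because they complete this count.

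The genes that switch cyclin-CDK complexes on and off or mark them for breakdown were split, with 8 positive and 6 negative values among 14 of 17 tested and a median of 0.02. Wee1, the kinase that inhibits CDKs by phosphorylation, had 117.9, 284.8 and 151.7 CPM in wild type and 102.9, 101.3 and 118.3 CPM in knockout, which overlap at wild-type library 1. Its log2 fold change was -0.78 (SE 0.35, edgeR unadjusted p = 0.0442, adjusted p = 0.677), the 1 gene of this list with an unadjusted p under 0.05, where 4.65% of all tested genes were lower at that level. Fbxo4, an F-box protein, stood at -1.86 (SE 0.92), and wild-type library 1, at 117.7 CPM, was far above the 3.95 to 28.1 CPM of the other 5. Skp1, a core subunit of SCF ubiquitin ligases, stood at 0.48 (SE 0.29).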

How the data were processed

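RNA was sequenced in 6 libraries, 3 per genotype. The deposited values are raw counts of reads, 1 whole number for each RefSeq transcript. The submitters' processing notes name TopHat and build mm9. Not given in the sources used here are versions, the counting tool, its annotation and the handling of shared reads. Of 30858 transcripts, 30363 were named from a RefSeq table of GRCm38.p6 and 179 from GENCODE, and counts were summed per gene. Because builds differ, GRCm38 models served for lengths and overlaps, and coordinates are printed for RefSeq promoter windows alone.

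Knockout and wild type were compared with edgeR 4.0.16 in R 4.3.3 (TMM factors, filterByExpr with minimum count 10 and total 15, robust quasi-likelihood test, no covariates), with Benjamini-Hochberg adjustment over all tested genes and a threshold of 0.05. Standard errors came from the F statistic. Log2 ratios used a prior count of 2. DESeq2 1.42.0, limma 3.58.1 (voom), other filters, thinning and leaving out each library were alternatives. The fits were tested on simulated data. Named genes were the 10 members, the 3 tested genes of smallest p in each related list, and the genes most like the most abundant members. Members and lists were chosen with earlier results of these data known. An item of the marker lists is not reported here.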

Additional observations from a re-analysis of the deposited data

How the results depend on the processing

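No member passed the threshold under any of the 15 alternatives, and 101 of 105 member values kept their sign. The 4 that turned were all Ccnd2, at -0.0048 with DESeq2's size factors in edgeR, -0.0048 with DESeq2, -0.12 without wild-type library 3 and -0.08 without knockout library 2. With 1 library left out, log2 fold changes ranged from 0.09 to 0.81 for Ccnd1, -0.12 to 0.10 for Ccnd2, 0.16 to 0.54 for Cdk4, 0.36 to 1.53 for Cdk6, 0.03 to 0.57 for Ccne1, 0.48 to 1.03 for Cdkn1b and 1.49 to 2.01 for Cdkn2c. Over all genes edgeR called 1, with 1 to 3 when a library was left out (3 without wild-type library 1, 2 without wild-type library 2) and 9 with no filter on low counts. DESeq2 called 120, and limma-voom with sample quality weights, chosen after seeing the data, called 3; the cause was not tested. Same-numbered libraries deviated from their group means with correlations of -0.022 to 0.02, and libraries of unlike number with -0.039 to 0.047. No pairing by number was seen, but 3 libraries per genotype cannot exclude it. With the replicate number as a block edgeR called 2 genes, and Cdk6 and Cdkn2c stood at 1.03 and 1.71. The median standard error over all genes, 0.59 in log2 units, limits what 3 libraries per genotype can show for genes as weakly counted as Ccne1 or Cdkn2c.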

Other observations

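Cyclins and kinases that act on transcription and not on the cell cycle had 11 of 11 genes tested, 4 with positive and 7 with negative log2 fold changes and a median of -0.07. By edgeR 0 had an unadjusted p under 0.05, where 2.63% of all tested genes were higher and 4.65% lower at that level. Ccnt2, a cyclin partner of Cdk9 in transcription elongation, stood at -0.91 (SE 0.43), the Mediator kinase Cdk8 at 1.03 (SE 0.53) and Ccnl1, a cyclin linked to splicing, at -0.45 (SE 0.25). Cdk8 had 14.2, 43.1 and 69.1 CPM in wild type and 95.5, 95.7 and 67.5 CPM in knockout, and these ranges overlap through wild-type library 3 alone.

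The genes whose log2 CPM most resembled that of Cdk6 over the 6 libraries, among 5244 genes with 1 listed transcript and a mean log2 CPM of at least 5, were Vps33a (Pearson's r = 0.992) and Ntmt1 (r = 0.984). Vps33a, a subunit of endosomal tethering complexes, had 4.58, 54.3 and 17.4 CPM in wild type and 54.3, 70.5 and 60 CPM in knockout, with the same low wild-type library 1. In all 59 genes reached an r of 0.95 with Cdk6 and 5 did so with Ccnd2, for which Ints2 (r = 0.978) and Pwwp3a (r = 0.977) came first. These r values describe 6 libraries that also share the deviations of wild-type libraries 1 and 2.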
